A study of Mus musculus with 4 samples.

Results

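Fatty acid oxidation was followed through 33 listed genes on Illumina bead arrays of mouse white adipose tissue. The mice were female and of the inbred strain C57BL/6. Members were taken by gene symbol from the annotation of the array's probes, with the older symbols Dci and Peci read as Eci1 and Eci2. This rule used no measured value, but members and lists were chosen with earlier results of these data known. They were separated into 18 mitochondrial genes, 9 peroxisomal genes, 2 whose enzymes work in both organelles (Crat and Acad11) and 4 regulators and thioesterases (Ppara, Pdk4, Acot1 and Acot2). Annotation gave 32 of the 33 a probe, 65 probes in all, and no probe carried the symbol Acad11. Of these 32 genes, 30 were detected on at least 1 array, out of 11384 detected genes in the whole series. Crot and Ppara, each with 1 probe, were detected on none.

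The design had 4 groups of 1 array each, all of mice aged 9 months. For the chow array, RNA of 3 samples from mice on normal chow was mixed. For each of the F0, F1 and F2 arrays, RNA of 4 samples was mixed, from mice of 3 successive generations on a high fat diet in which fat supplied 60% of the calories. The labels name neither the fat depot nor the generation of the chow mice, and they leave unsaid whether the mixed samples were separate animals.

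Fatty acids are shortened inside mitochondria by a repeating cycle of dehydrogenation, hydration, second dehydrogenation and thiolytic cleavage, after the carnitine shuttle has carried them across the inner membrane. Peroxisomes run a similar cycle on very long and branched chains and pass the shortened products on. Many of these genes are controlled by the nuclear receptors PPARα and PPARγ, and in white adipocytes, which mainly store and release fat, the pathway is far less used than in liver, muscle or brown fat.

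Values are log2 signals after background correction and quantile normalization, and a gene took the value of its brightest probe. Detection required a detection p under 0.01 for the probe, and the lowest detected log2 signals lay between 4.77 and 4.94 on the 4 arrays. Since each group is a single array, differences between arrays could not be set against replicates and are given by size alone. The one technical gauge was the disagreement between probes of the same gene, with an SD on the log2 scale of 0.305 for F0 minus chow, 0.290 for F1 minus chow, 0.314 for F2 minus chow and 0.239 for F2 minus F0, over 3069 genes. The 3 differences from chow all use the same chow array.

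The labelled tissue was borne out by adipocyte markers, of which 11 of 12 listed were detected, each on all 4 arrays. Signals of other cell types moved between the arrays. The summed linear signal of 12 detected hepatocyte markers, out of 15, was 407 on chow, 530.1 on F0, 4923 on F1 and 12137 on F2, with 5, 6, 10 and 12 of them detected. That of 11 macrophage markers, out of 12, was 4520 on chow, 17168 on F0, 22987 on F1 and 28822 on F2. B cell markers summed to 209 on chow, 311 on F0, 287 on F1 and 4968 on F2, with 5 of 8 detected on F2. Muscle markers (12 of 14 detected) and brown adipocyte markers (4 of 8) had medians of -2.25 and -2.35 for F2 minus chow. A bulk sample cannot tell fewer cells of a type from less RNA per cell.

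Across the 3 high fat arrays the oxidation genes stood highest on F0 and lowest on F2. Of 18 mitochondrial genes 14 had the order F0 above F1 above F2, as had 6 of 8 detected peroxisomal genes and 22 of all 30 (73.3%), whereas 30.4% of all genes had it. The median difference F2 minus F0 was -0.53 for the mitochondrial and -0.54 for the peroxisomal genes, against -0.05 for all genes. Both steps contributed, with medians of -0.22 and -0.23 for F1 minus F0 and -0.26 and -0.28 for F2 minus F1. Below F0 on the F2 array were 27 of 30 members (90%), compared with 54.1% of all genes. The exceptions were Cpt1a and Hadha, at 0.01 and 0.03 above, and Acot1. The 4 mitochondrial genes without the descending order were Cpt1a, Hadha, Hadhb and Hadh, and all but Hadhb were dim. These results rest on the brightest probes. With the mean over detected probes, 11 mitochondrial genes descended, and the F2 minus F0 medians were -0.41 (mitochondrial) and -0.51 (peroxisomal). Without background correction these medians were -0.52 and -0.33.

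Set against chow, the F0 array held the mitochondrial genes evenly, 9 above and 9 below, and the peroxisomal genes 5 above and 3 below with a median of 0.13. On F1 the medians were -0.24 and -0.08. On F2 they were -0.35 and -0.31, but 0.21 and 0.24 when the arrays were shifted to a common adipocyte marker median, as described at the end. The medians of all genes were -0.01, -0.02 and -0.09, but 0.46 on F2 under that shift. On F2 the medians of both groups were thus below that of all genes either way. On F2 16 of 18 mitochondrial genes lay below chow, where 56.4% of all genes did.

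Adipocyte markers had a similar course, with medians of 0.29 on F0, -0.04 on F1 and -0.47 on F2 relative to chow, and 9 of 11 in the descending order. Their median for F2 minus F0 was -0.70, beside -0.53 and -0.54 for the oxidation genes, and 5 of the 11 fell in the slope test described below. Whether the amount of adipocyte RNA on the arrays had a part in the course of the oxidation genes was not tested.

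**Figure D1:**
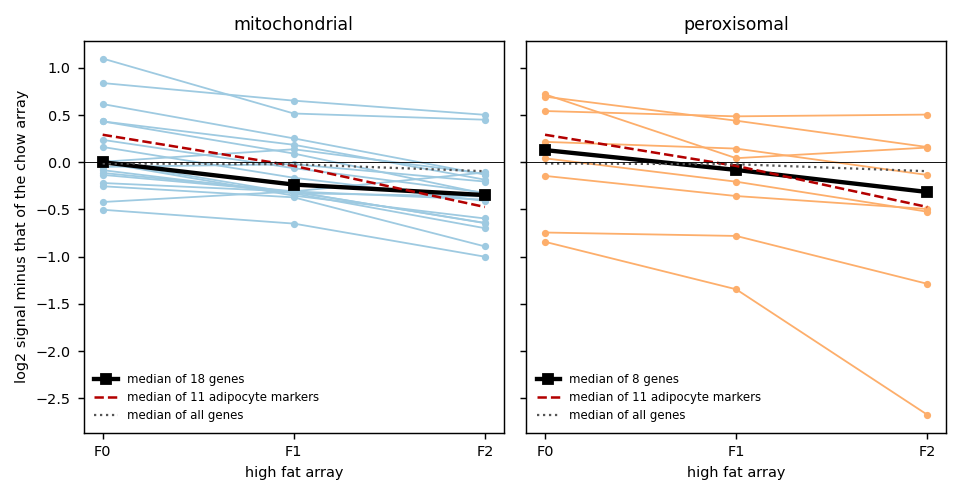
Log2 signal minus that of the chow array (vertical axis) on the F0, F1 and F2 arrays for each of the 18 mitochondrial genes (left, blue) and 8 detected peroxisomal genes (right, orange), with their median in black, that of 11 adipocyte markers in dashed red and that of all 11384 genes in dotted grey. The medians of both groups end at -0.35 and -0.31 on F2, and the lowest line is Eci3.

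The genes on which the results turn are shown by the DNA at their start sites, taken from RefSeq on the mouse build GRCm38.p6, 250 bases before to 50 after the annotated start, on the strand of the gene. RefSeq windows were found for 28 of the 33 members. They were searched on both strands for AGGTCA, the hexamer that nuclear receptors recognise, for TCAAGGTCA, an extended form bound by estrogen related receptors, and for DR1, a pair of AGGTCA copies 1 base apart with up to 2 mismatches in its 12 letters, the arrangement bound by PPAR with its partner RXR. A DR1 or TCAAGGTCA match can overlap an AGGTCA match. AGGTCA stood in 4 of 28 member windows (Acadm, Acadvl, Cpt1a and Echs1) and in 16.3% of all 32851 windows, TCAAGGTCA in 0 of 28 and 0.423%, and DR1 in 3 of 28 and 3.86%. The 3 windows with DR1 follow, its match in capitals, for the carnitine carrier Slc25a20 at chr9:108661886-108662185 (plus strand), the electron transfer subunit Etfa at chr9:55512194-55512493 (minus strand) and the hydratase Echs1 at chr7:140116372-140116671 (minus strand). A match describes letters and not binding.
Slc25a20: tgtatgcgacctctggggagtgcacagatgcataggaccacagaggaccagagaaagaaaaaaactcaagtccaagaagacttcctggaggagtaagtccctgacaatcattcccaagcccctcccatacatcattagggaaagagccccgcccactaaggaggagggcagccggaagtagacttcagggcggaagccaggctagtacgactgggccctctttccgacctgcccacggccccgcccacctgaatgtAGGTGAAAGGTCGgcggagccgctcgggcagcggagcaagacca
Etfa: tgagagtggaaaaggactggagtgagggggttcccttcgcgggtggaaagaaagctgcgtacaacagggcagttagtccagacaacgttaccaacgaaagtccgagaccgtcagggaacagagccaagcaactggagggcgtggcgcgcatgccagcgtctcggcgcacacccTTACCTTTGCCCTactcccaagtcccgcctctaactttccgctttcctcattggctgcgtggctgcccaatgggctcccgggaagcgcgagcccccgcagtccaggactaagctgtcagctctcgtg
Echs1: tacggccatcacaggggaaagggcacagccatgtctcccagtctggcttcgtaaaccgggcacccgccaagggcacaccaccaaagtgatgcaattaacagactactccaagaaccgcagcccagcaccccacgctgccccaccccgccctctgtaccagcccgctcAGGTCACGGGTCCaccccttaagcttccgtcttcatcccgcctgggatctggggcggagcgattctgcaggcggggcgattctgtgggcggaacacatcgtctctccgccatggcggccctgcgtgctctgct

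The 3 genes that passed the slope test held none of these motifs in their windows, which are Pdk4 at chr6:5496229-5496528 (minus strand), Eci3 at chr13:34963760-34964059 (minus strand) and Acot1 at chr12:84009252-84009551 (plus strand).
Pdk4: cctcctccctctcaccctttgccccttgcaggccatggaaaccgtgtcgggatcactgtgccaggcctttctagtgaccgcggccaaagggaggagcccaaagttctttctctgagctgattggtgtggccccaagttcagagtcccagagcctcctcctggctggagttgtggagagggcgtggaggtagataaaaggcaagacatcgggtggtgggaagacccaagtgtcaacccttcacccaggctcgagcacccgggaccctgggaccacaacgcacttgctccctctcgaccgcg
Eci3: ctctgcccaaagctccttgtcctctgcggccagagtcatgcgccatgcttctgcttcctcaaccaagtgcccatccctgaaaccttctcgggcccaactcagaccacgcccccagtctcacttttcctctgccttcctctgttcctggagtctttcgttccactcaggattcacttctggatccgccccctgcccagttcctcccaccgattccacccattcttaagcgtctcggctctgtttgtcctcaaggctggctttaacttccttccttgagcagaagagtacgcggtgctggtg
Acot1: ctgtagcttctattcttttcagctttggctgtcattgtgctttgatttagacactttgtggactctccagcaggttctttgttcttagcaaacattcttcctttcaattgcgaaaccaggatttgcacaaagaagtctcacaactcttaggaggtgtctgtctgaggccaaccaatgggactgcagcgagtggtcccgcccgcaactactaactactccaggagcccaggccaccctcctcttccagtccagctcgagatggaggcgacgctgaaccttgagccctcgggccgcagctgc

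Hadha and Hadhb, the subunits of the trifunctional protein, lie head to head with start sites 273 bases apart, and their windows share the interval chr5:30155003-30155230. It is printed on the plus strand, because neither gene of this pair had the descending order.
Hadha and Hadhb: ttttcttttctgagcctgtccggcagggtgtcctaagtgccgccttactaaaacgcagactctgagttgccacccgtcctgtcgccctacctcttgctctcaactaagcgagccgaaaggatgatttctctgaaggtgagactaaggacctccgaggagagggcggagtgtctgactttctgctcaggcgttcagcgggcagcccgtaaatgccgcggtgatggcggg

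The carnitine shuttle's transfer enzymes and carrier were lowest on F2 in 3 of 4 genes. Cpt2, the transferase of the inner membrane, had log2 signals of 11.37 on chow, 11.15 on F0, 11.06 on F1 and 10.72 on F2. The dimmer probes of Cpt2 were also lowest on F2, but their F1 minus F0 was 0.144 and 0.001. Slc25a20, the carrier that exchanges acylcarnitine for carnitine and whose promoter window holds a DR1 match, had 10.78 on chow, 10.95 on F0, 10.62 on F1 and 10.37 on F2. Cpt1b, the muscle form of the outer membrane transferase, had 6.97, 6.84, 6.66 and 6.33 in the same order. F2 minus chow was between -0.41 and -0.64 for these 3, and for Slc25a20 chow lay between F0 and F1. Cpt1a, the liver form and the entry point under malonyl-CoA control, was near the limit of detection, from 4.59 to 4.90, and was not detected on F0 or F1. Its second probe was detected on no array.

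The acyl-CoA dehydrogenases open each turn of the cycle, one for each range of chain lengths, and all 4 had the order F0 above F1 above F2. Acadl, for long chains, had 7.71 on chow, 8.81 on F0, 8.23 on F1 and 8.16 on F2. By this brightest probe F0 was 2.14-fold above chow. A dimmer Acadl probe detected on all arrays had F0 minus chow of 0.62 and F2 minus chow of -0.16. Acadm, for medium chains, had 12.56, 13.00, 12.75 and 12.38, and Acads, for short chains, 9.55, 10.17, 9.80 and 9.42 in the same order. For these 2 genes F0 was above chow and F2 below it by the brightest probe. Acadvl, for very long chains and bound to the inner membrane, went another way relative to chow, with 10.87 on chow, 10.37 on F0, 10.22 on F1 and 9.87 on F2. It was lower on each high fat array, and on F2 it was just short of 2-fold lower.

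The genes for the later steps of the cycle differed among themselves. Echs1, the short chain hydratase, had 10.98 on chow, 10.73 on F0, 10.61 on F1 and 10.09 on F2. Acaa2, the thiolase that releases acetyl-CoA, had 8.88 on chow, 9.72 on F0, 9.53 on F1 and 9.38 on F2, and all 4 of its probes were higher on each high fat array than on chow. F2 minus chow was thus -0.89 for Echs1 and 0.50 for Acaa2. The trifunctional protein performs the last 3 steps on long chains, and F2 minus F0 was 0.03 for Hadha and -0.13 for Hadhb. Hadha was below chow on all high fat arrays, with differences from -0.31 to -0.42, and Hadhb stayed within 0.14 of chow. The Hadha signal was dim, from 5.44 to 5.86 on its 1 probe, while Hadhb was at 10.84 to 11.10. Hadh, the hydroxyacyl dehydrogenase of shorter chains, was near the limit of detection, from 4.95 to 5.16.

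The auxiliary enzymes Eci1 and Decr1 prepare unsaturated fatty acids for the cycle, and the flavoprotein subunits Etfa and Etfb with the oxidoreductase Etfdh hand its electrons to the respiratory chain. All 5 descended from F0 to F2 by their brightest probes. Decr1, the dienoyl-CoA reductase, had 8.62 on chow, 9.05 on F0, 8.71 on F1 and 8.28 on F2, the largest F2 minus F0 difference of the mitochondrial genes at -0.77. Etfa, with a DR1 match in its window, had 12.72, 12.96, 12.66 and 12.40, and its partner Etfb 12.97, 12.88, 12.64 and 12.27. Both subunits thus lost similar amounts from F0 to F2, -0.56 and -0.61. Eci1 had 10.94 on chow and on F0, then 10.59 on F1 and 10.35 on F2. Etfdh had 9.25 on chow, 9.26 on F0, 8.93 on F1 and 8.89 on F2, so by their brightest probes chow and F0 were level for both genes. A dimmer Etfdh probe, with 6.62, 5.87, 5.80 and 5.84, was below chow on F0 already and differed by -0.03 between F2 and F0.

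The 8 detected peroxisomal genes differed from chow by -2.67 to 0.72. Eci3, an enoyl-CoA isomerase of peroxisomes that lies beside its paralog Eci2 on chromosome 13, had 8.56 on chow, 7.72 on F0, 7.22 on F1 and 5.89 on F2. Pex11a, which promotes the division of peroxisomes, had 10.22, 9.47, 9.44 and 8.93. Both were lower on every high fat array, and on F2 by factors of 6.38 for Eci3 and 2.44 for Pex11a. All 4 probes of Pex11a agreed in this, with F2 minus chow from -0.94 to -1.46. Hsd17b4, the bifunctional enzyme for branched and very long chains, went the other way, with 11.90 on chow, 12.59 on F0, 12.34 on F1 and 12.06 on F2. Acox3, an oxidase of branched chains, was 0.49 to 0.54 above chow on each high fat array and differed by -0.04 between F2 and F0. Ehhadh, the bifunctional enzyme of straight chains, differed from chow by 0.04 on F0 and -0.52 on F2, and hepatocytes also express it. Acaa1a, a thiolase, differed from chow by 0.22, 0.14 and -0.13, and Eci2 by -0.14, -0.36 and -0.49. Decr2, a dienoyl-CoA reductase, was dim, from 4.93 to 5.65, and highest on F0. Crot, the octanoyltransferase, had deposited intensities of 49.4 to 57.8 and was not well above background on any array.

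Crat, the carnitine acetyltransferase of both organelles, had 9.94 on chow, 9.53 on F0, 9.38 on F1 and 8.88 on F2. It was 2.09-fold lower on F2 than on chow, with its second probe, which is dimmer, at -0.38.

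Among the regulators and thioesterases, Pdk4, the kinase that turns off pyruvate dehydrogenase and so spares glucose when fat is burned, had deposited intensities of 559.6 on chow, 2006 on F0, 1141 on F1 and 818.2 on F2. On the log2 scale these were 8.96, 10.90, 10.09 and 9.59. It was above chow on every high fat array, 3.84-fold on F0, 2.19-fold on F1 and 1.55-fold on F2. Acot1, a cytosolic thioesterase that PPARα induces in liver, had intensities of 314.5 on chow, 159 on F0, 198 on F1 and 359.8 on F2, or 8.02, 6.95, 7.34 and 8.29 on the log2 scale. It differed from chow by -1.07 on F0, a little over 2-fold, by -0.68 on F1 and by 0.27 on F2, so its course over the generations ran opposite to that of Pdk4. Its paralog and neighbour Acot2, the mitochondrial form, was near the limit of detection, from 4.68 to 5.16, and was not detected on F1 or F2. Ppara, the receptor PPARα itself, had intensities of 49.3 to 55.3 and was not well above background on any array.

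**Figure D2:**
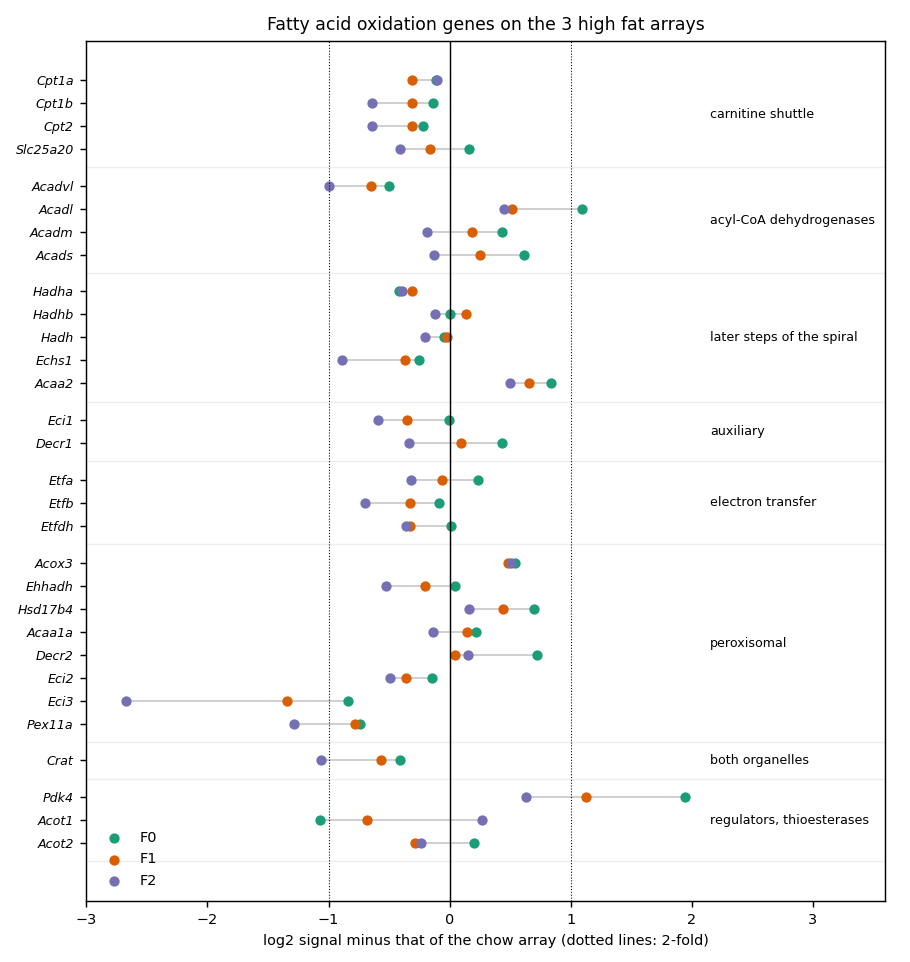
Log2 signal minus that of the chow array (horizontal axis) on the F0 (green), F1 (orange) and F2 (purple) arrays for the 30 detected genes, grouped by role, with dotted lines at 2-fold. F2 lies to the left of F0 in 27 of the 30 genes, and beyond the left line on F2 are Eci3, Pex11a and Crat.

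Few members passed 2-fold by their brightest probes. On F0, 2 were at least 2-fold above chow (Acadl and Pdk4) and 1 below (Acot1), where 6.69% of all genes were above and 6.65% below. On F1 Pdk4 was above and Eci3 below, where 7.38% and 6.31% of all genes were. On F2, 0 members were above and 3 below (Eci3, Pex11a and Crat), with backgrounds of 9.35% and 8.24%. Between F2 and F0, Acot1 was above, where 4.62% of all genes were, and Eci3 and Pdk4 below, where 2.53% were. With 30 members, the counts against chow lie near these backgrounds.

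In the test of the 3 high fat arrays against chow, 0 of 30 members rose and 0 fell after Benjamini-Hochberg adjustment over all genes with limma, where 2.9% of all genes rose and 3.41% fell. At an unadjusted p under 0.05, 2 of 30 members were higher and 2 lower, where 11.1% and 13.8% of all genes were, so the members passed no more often than other genes. The higher ones were Acaa2, with a log2 difference of 0.66 ± 0.20 (SE, limma, adjusted p = 0.125), and Acox3, with 0.51 ± 0.19 (adjusted p = 0.180). The lower ones were Pex11a at -0.94 ± 0.27 (limma, adjusted p = 0.117) and Acadvl at -0.72 ± 0.24 (adjusted p = 0.151). Each of these 4 differed from chow in the same direction on 3 of 3 high fat arrays. The test favours genes with such agreement and all 3 differences use the same chow array, so this adds no separate support. The 3 generations are not replicates of one condition and the chow array has no spread of its own, so the error in this test includes differences between generations. Without the F2 array, 3 of 30 members rose and 5 fell in limma, where 13.8% of all genes rose and 14.1% fell, which is near the members' share. Those that rose were Acaa2 (0.75, adjusted p = 0.0108), Hsd17b4 (0.57, adjusted p = 0.0276) and Pdk4 (1.54, adjusted p = 0.0126). Those that fell were Pex11a (-0.76, adjusted p = 0.00595), Eci3 (-1.09, adjusted p = 0.0161), Acadvl (-0.58, adjusted p = 0.0178), Acot1 (-0.88, adjusted p = 0.0258) and Crat (-0.48, adjusted p = 0.0385). Without F0 or without F1, 0 members passed. Muscle and brown fat express this pathway strongly. Of 12 muscle markers 10 were below chow on F0, 10 on F1 and 11 on F2, with medians of -2.29, -2.22 and -2.25, while their summed signal was 4055 on chow, 4420 on F0, 3417 on F1 and 2734 on F2. The 4 brown adipocyte markers were below chow on each high fat array, with medians of -1.56, -1.87 and -2.35. Their part in the members that were lower than chow was not tested.

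The slope over the generations was tested on the 3 high fat arrays alone. Its error combines the gene's own departure from a straight line with that of genes of similar signal, and is not a spread between replicates. Pdk4 fell by 0.65 ± 0.08 per generation on the log2 scale (SE, limma, adjusted p = 0.0227) and Eci3 fell by 0.92 ± 0.15 (adjusted p = 0.0367), where 1.76% of all genes fell. Acot1 rose by 0.67 ± 0.12 per generation (limma, adjusted p = 0.0445), where 2.14% of all genes rose. From F0 to F2 these slopes amount to 2.48-fold lower for Pdk4, 3.56-fold lower for Eci3 and 2.53-fold higher for Acot1. Slopes were negative in 27 of 30 members (90%) and in 54.2% of all genes. At an unadjusted p under 0.05, 17 members were lower with generation and 1 higher, where 14.1% of all genes were lower and 12.3% higher. Just short of the threshold in limma were Acads at -0.37 ± 0.08 (adjusted p = 0.0502), Acadm at -0.31 ± 0.07 (adjusted p = 0.0536) and Etfb at -0.31 ± 0.07 (adjusted p = 0.0544).

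With 3 arrays the slope rests on 1 residual degree of freedom, and the calls depended on the processing. Over 10 alternatives, Pdk4 and Eci3 each passed in 7 and Acot1 in 6, with adjusted p from 0.00587 to 0.338 for Pdk4, from 0.0023 to 0.34 for Eci3 and from 1.16e-05 to 0.339 for Acot1. The number of members that fell ranged from 0, with the authors' value table or without a mean trend, to 11 without background correction, where 5.19% of all genes fell. Those 11 were Pdk4, Eci3, Acadm, Acads, Decr1, Etfa, Etfb, Eci1, Echs1, Slc25a20 and Hsd17b4.

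**Figure D3:**
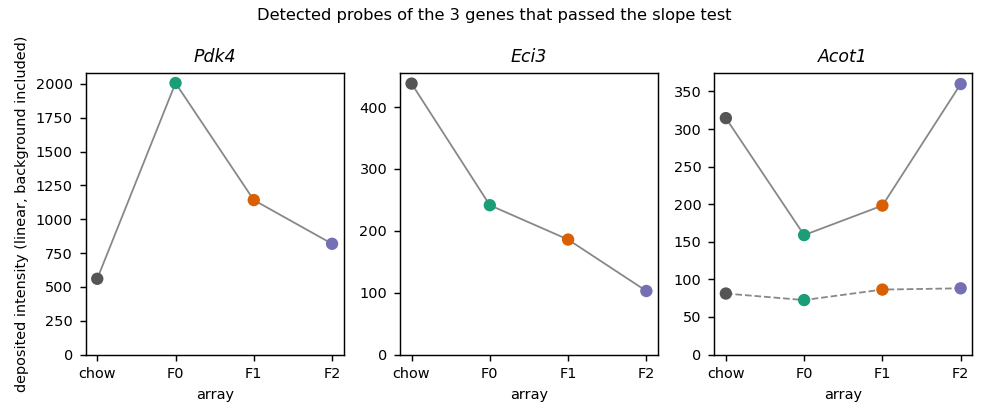
Deposited linear intensity (vertical axis, background included) of the detected probes of Pdk4, Eci3 and Acot1 on the 4 arrays, with the brightest probe on solid lines and the second Acot1 probe on a dashed line. From F0 to F2 Pdk4 and Eci3 descend and the brightest Acot1 probe climbs from 159 to 359.8, while its second probe stays between 72.5 and 88.1.

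Liver expresses Acot1, so the hepatocyte markers are given beside it. Their summed signal climbed from F0 to F2 as given above, and all 12 detected hepatocyte markers were at least 2-fold higher on F2 than on F0, where 6 of them were detected. From chow to F0 the sum went from 407 to 530.1, while Acot1 went from 8.02 to 6.95 on the log2 scale. On F2 the sum was 12137 and Acot1 was at 8.29. The part of hepatocyte RNA in the slope of Acot1 was not tested. Acot1, Eci2, Eci3 and Acaa1a have close paralogs, and whether their probes also bind paralog transcripts was not tested.

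Several probes of a gene gave a second reading. Of 13 members with more than 1 probe detected on all arrays, all probes had the same sign in 10 for F0 minus chow, 11 for F1 minus chow, 9 for F2 minus chow and 12 for F2 minus F0. For F2 minus chow the 4 that disagreed were Acadl (0.45 and -0.16), Acads (-0.13 and 0.31), Cpt1b (-0.64 and 0.01) and Slc25a20 (-0.41 and 0.10). The second Acot1 probe, not detected on F0, was at least 1.53-fold higher on F2 than on F0. Its F2 minus F1 was -0.03 and its F1 minus chow 0.24, so it did not share the rise from F1 to F2. Slc25a20 was also the 1 exception for F2 minus F0, at -0.57 and 0.20, so the descent of this carrier rests on its brighter probe. For F0 minus chow Cpt1b, Slc25a20 and Etfdh disagreed, with Etfdh at 0.01 and -0.75. Pdk4, Eci3, Decr1, Eci1 and Acadm have 1 probe each.

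Related genes outside the 33 were read from 4 lists. Of 20 other mitochondrial genes of fatty acid and branched-chain breakdown, 16 were detected, and 13 of these had the descending order over the generations, with a median F2 minus F0 of -0.57. Of 29 other peroxisomal genes, 22 were detected and 16 descended, with a median of -0.46. For the 7 detected of 8 acyl-CoA synthetases, which activate fatty acids before oxidation, the median was -0.06. It was -0.11 for the 20 detected of 27 PPAR targets and regulators, where all genes had -0.05. The shares in descending order in the mitochondrial and peroxisomal lists were 81.2% and 72.7%, against 30.4% of all genes.

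Among the other mitochondrial genes Acacb, whose product malonyl-CoA inhibits the carnitine transferase of the outer membrane, fell in high fat against chow by 2.33 ± 0.38 (limma, adjusted p = 0.0360). Its log2 signals were 10.29 on chow, 8.34 on F0, 8.09 on F1 and 7.45 on F2, and 1 of the 16 genes fell and 0 rose in this test. In the slope test 1 of the 16 rose and 1 fell. Acadsb, of branched-chain breakdown, and its relative Acad10 were 2.36-fold and 2.71-fold lower than chow on F2 and passed neither test. Bdh1, a ketone body enzyme that hepatocytes express, was not detected on F0 and was at least 2.10-fold higher on F2 than on F0 (slope in limma, adjusted p = 0.0344), where it lay 0.12 above chow. Pccb, a subunit of propionyl-CoA carboxylase that is outside the naming rule and was chosen after its values were seen, fell by 0.54 ± 0.09 (limma, adjusted p = 0.0344) per generation.

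Among the other peroxisomal genes Acaa1b, the paralog of Acaa1a, had 10.15 on chow, 11.62 on F0, 11.22 on F1 and 10.91 on F2. It was 2.75-fold above chow on F0 and fell over the generations by 0.35 ± 0.07 (limma, adjusted p = 0.0476), and of the 22 genes this was the 1 call in either test. Acot4 was 2.04-fold lower than chow on F2. The import genes Pex6 and Pex7 differed from chow on F0 by -0.78 and 0.76, and neither passed a test.

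Of the 7 synthetases 0 passed in high fat against chow, and 1 rose and 1 fell in the slope test. Slc27a2, a very long chain enzyme abundant in liver, was not detected on F0 and was at least 4.14-fold higher on F2 than on F0 (slope in limma, adjusted p = 0.0201). Acsl5 lay 0.22, 0.23 and 0.35 above chow on F0, F1 and F2, and Acsl4 0.15, 0.52 and 0.09 above. Acsl6 was near the limit of detection and was detected on chow alone. Slc27a1, a transporter of long chains that was also chosen after its values were seen, fell by 0.90 ± 0.15 (limma, adjusted p = 0.0391).

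In the PPAR list 1 of 20 genes rose and 0 fell in high fat against chow, and 1 rose and 1 fell in the slope test. Plin2, which coats lipid droplets, rose in high fat against chow by 1.57 ± 0.17 (limma, adjusted p = 0.0194), with 9.41 on chow, 10.84 on F0, 11.00 on F1 and 11.09 on F2. Macrophages that hold lipid also express it, and their markers were higher on the same arrays, but their part in the difference of Plin2 was not tested. Cyp4a14, a fatty acid hydroxylase that PPARα induces in liver, was not detected on chow or F0 and was at least 15.2-fold higher on F2 than on F0 (slope in limma, adjusted p = 0.00118). Ppargc1b, a coactivator of mitochondrial genes, was 1.75-fold, 2.07-fold and 1.90-fold lower than chow on F0, F1 and F2 and did not pass the test. Lpin1, a coactivator and phosphatidate phosphatase chosen after its values were seen, fell by 0.54 ± 0.08 (limma, adjusted p = 0.0296). Fgf21, a hormone induced by PPARα, was at least 1.71-fold, 1.98-fold and 1.66-fold above chow. The part of hepatocyte RNA in the differences of Cyp4a14, Slc27a2 and Bdh1 was not tested.

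A last reading set the arrays to a common median of the adipocyte markers, an alternative chosen after the data were seen. It shifted the log2 signals by -0.19 on chow, -0.09 on F0, -0.09 on F1 and 0.37 on F2, and so moved the median of all genes for F2 minus chow to 0.46. Under it the median F2 minus F0 was -0.06 for the mitochondrial and -0.07 for the peroxisomal genes, against 0.42 for all genes. On F2, 11 of 18 mitochondrial and 5 of 8 peroxisomal genes were then below F0, compared with 17.8% of all genes. In descending order were 1 mitochondrial and 2 peroxisomal genes. The shift is 1 constant per array, so it moved every gene's F2 minus F0 difference by the same amount and left the distance of the oxidation genes from the median of all genes as it was. Eci3 still differed by -1.36 and passed the slope test (limma, adjusted p = 0.0023), while the slope of Pdk4 became -0.42 (adjusted p = 0.101).

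**Figure D4:**
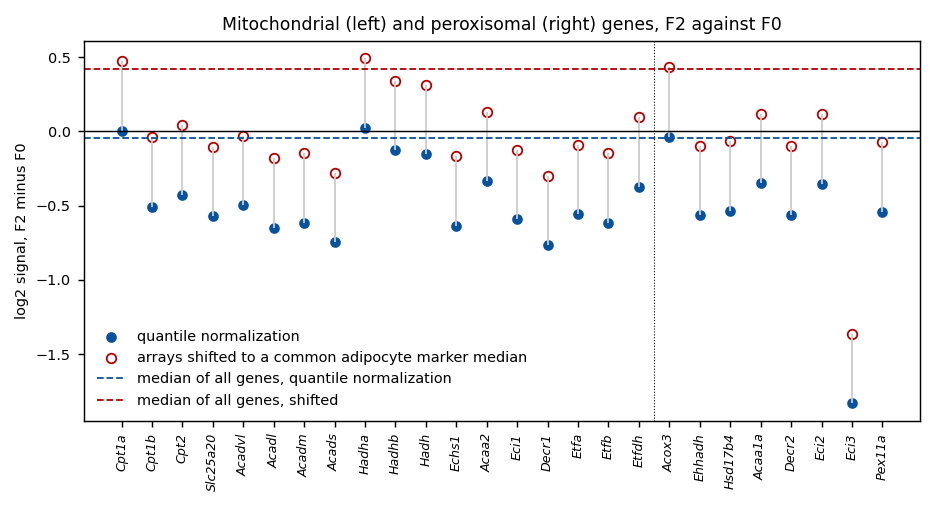
Log2 signal on F2 minus that on F0 (vertical axis) for each mitochondrial and detected peroxisomal gene after quantile normalization (filled blue) and after shifting each array to a common adipocyte marker median (open red), with the median of all genes under each as a dashed line. Eci3 stands apart under both, at -1.83 and -1.36.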

How the data were processed

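Total RNA was labelled as biotinylated cRNA and read on 4 Illumina mouse arrays, per the labels' protocols. The deposited table gives a linear intensity and a detection p-value for each of 45281 probes. GenomeStudio 2010.2 is named per the submitters' processing notes, and the background and scaling steps are not given in the sources used here. The deposited intensity has the same mean, 274.4, on all 4 arrays, and the deposited p-values move in steps of 1 in 936. The authors' value table holds background-subtracted intensities, with 25.8 to 27.8% of values below 0 and medians of 6.17, 5.69, 5.60 and 6.24 for chow, F0, F1 and F2. On each array its values lie on a straight line against the first table, neither logged nor centred by probe, and it was used as an alternative. All columns of per-sample values were used.

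Background was corrected with limma 3.58.1 (nec, controls inferred from detection p, offset 16) in R 4.3.3, followed by quantile normalization and log2. Detected probes numbered 18011 on chow, 17435 on F0, 17095 on F1 and 18532 on F2. The number of arrays limits the precision. Symbols came from the platform annotation, in which 34885 probes have 1 gene, 18 several and 10378 none, updated by gene ID for 34807. Groups came from the labels.

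In limma, lmFit and eBayes (mean trend) tested high fat against chow (2 residual degrees of freedom) and the slope over F0, F1 and F2 (1 residual degree of freedom), both two-sided and adjusted by Benjamini-Hochberg over 11384 genes with a threshold of 0.05. p-values measure only the spread between these arrays, which may be technical. The tests were tried on simulated data with planted changes larger than those of any member. That trial does not show how they perform on changes of the members' size. Alternatives changed the background, scaling, probe rule, detection limit, threshold, trend and arrays used. Every member was named, and up to 4 genes of each further list with the largest difference between the high fat mean and chow. Members and lists were chosen with earlier results of these data known.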

Additional observations from a re-analysis of the deposited data

Results flagged for a closer look

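3 members passed limma's slope test over the F0, F1 and F2 arrays. Each generation is 1 array, so the test's error is not a spread between replicates. It combines the gene's own departure from a straight line with that of genes of similar signal. Each call was lost in 3 or 4 of 10 alternatives. Pdk4 had a slope of -0.65 log2 units per generation (limma, adjusted p = 0.0227), and its signal was highest on F0 and lowest of the high fat arrays on F2. Eci3 had a slope of -0.92 (limma, adjusted p = 0.0367) and was lower on each later array. Acot1 had a slope of 0.67 (limma, adjusted p = 0.0445). By its brightest probe it was below chow on F0 and F1 and above it on F2. Its second probe, not detected on F0, was at least 1.53-fold higher on F2 than on F0. On that probe F2 minus F1 was -0.03 and F1 minus chow was 0.24, where the brightest probe had 0.95 and -0.68.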

How the results depend on the processing

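Of 230 counts and medians recomputed under the alternatives, 187 stayed close to the reported value and 43 moved. Close meant within a factor of 1.5 for a count. For a median it meant a move smaller than the SD between probes of a gene, 0.162 to 0.314, which is a wide margin. Of 720 single gene differences from chow 680 kept their sign. The detection limit of 0.05 left all these medians and single gene differences as they were, so that alternative was no check on them. The mean over detected probes likewise left genes with 1 detected probe as they were. The 680 therefore include differences that could not change. Without background correction, F0 against chow had 1 member higher and 0 lower and 11 fell in the slope test. An offset of 50 gave 1 higher, 0 lower and 7 fallen. Median scaling gave 1 higher on F0, and in the slope test 0 rose and 1 fell. Under these alternatives, in this order, the peroxisomal median F2 minus F0 was -0.33, -0.34 and -0.40. The mitochondrial median was -0.52, -0.52 and -0.54. The authors' value table gave 2 lower on F0, with 0 rising and 0 falling over the generations. The mean over detected probes gave 1 higher and 0 lower on F0, 0 higher for F2 against F0, and 0 that rose with generation. It left 11 mitochondrial genes in descending order. A detection p below 0.05 gave 7 that fell with generation and no filter on detection 4, since the set of genes tested changes. Without a mean trend 0 rose and 0 fell. Leaving out each high fat array gave 0 to 3 members that rose and 0 to 5 that fell against chow. At 1.5-fold there were 6 higher and 3 lower on F0, 2 and 4 on F1, 1 and 9 on F2, and 10 lower for F2 against F0. The share of all genes at 1.5-fold was not computed, so these counts cannot be set against a background. Scaling to probes detected on all arrays, added after the data were seen, gave 9 that fell with generation. Scaling to adipocyte markers, also added then, gave 0 lower on F0, 4 higher and 1 lower on F2 against chow, 1 lower for F2 against F0, and 1 that fell with generation. Its mitochondrial and peroxisomal medians were 0.21 and 0.24 for F2 minus chow, 0.21 and 0.19 for F2 minus F1, and -0.065 and -0.070 for F2 minus F0, with 1 and 2 genes in descending order. Under this scaling, shifts of -0.19 on chow and 0.37 on F2 raised F2 minus chow for every gene. The medians of all genes were then 0.46 for F2 minus chow and 0.42 for F2 minus F0. The cause of the other changes was not tested. For the slope counts the share of all genes was computed only under the main setting and without background correction. The slope counts of the remaining alternatives therefore have no background beside them. At 2-fold the share of all genes was computed only under the main setting. The 2-fold counts of the alternatives therefore cannot be set against a background. No slope could be tested without 1 of its arrays. No paired analysis was possible because each group has 1 array. Signals near the background limit the values of Cpt1a, Hadh, Decr2 and Acot2, and Hadha and Ehhadh were also dim.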
